A study of Mus musculus with 13 samples.

Results

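DEAD and DEAH box RNA helicases were followed over time in mouse fibroblasts kept cool at 32°C or held at 37°C. All genes whose symbol starts with Ddx or Dhx followed by a digit were taken, which gave 51 members of 19938 genes tested, 35 of them Ddx and 16 Dhx. For 4 members with 2 transcript clusters, the sets of probes that the array summarizes into 1 value, the brighter one was used. Ddx19a and Ddx3y had no transcript cluster of their own and were not analysed here.

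The cells were primary mouse embryonic fibroblasts bought from a supplier, grown in high glucose medium with serum under atmospheric oxygen. The normothermia group holds 7 arrays at 37°C, at 0, 0.5, 1, 2, 4, 8 and 18 h, and the hypothermia group 6 arrays at 32°C, from 0.5 to 18 h. The array at 0 h starts both time courses. Each array holds the pooled RNA of 3 dishes, and each temperature and time has 1 array without a replicate. Precision is limited by this number of arrays.

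DEAD and DEAH box proteins are named after the amino acid letters of a conserved motif and use ATP to unwind or clamp RNA or to strip proteins from it. Most DEAD box proteins open short duplexes locally, whereas many DEAH box proteins move along a strand. In growing cells such as fibroblasts they serve each step in the life of an RNA, from splicing and ribosome assembly to export, translation and decay, and a few of them sense viral RNA.

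All 11 fibroblast markers lay above the median signal of all transcript clusters, as did 1 of 6 macrophage, 0 of 5 endothelial, 1 of 5 epithelial, 3 of 5 skeletal muscle and 1 of 5 neural markers. The summed intensity of the macrophage markers was 448.8 to 477.3 at 37°C and 473.8 to 608.5 at 32°C, that of the fibroblast markers 53529.6 to 54766.8 and 50375.1 to 55109.2, and that of the neural markers 1684.3 to 1923.4 and 1231.1 to 1764.3. Their part in the results was not tested, and in these bulk samples fewer cells of a type and less RNA per cell cannot be told apart. Of the 51 helicases, 45 had a mean log2 signal above the median of all transcript clusters, and Ddx4, Ddx25, Ddx28, Ddx43, Ddx60 and Dhx58 did not.

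In 18 of 51 members the difference between 32°C and 37°C stayed within 0.2 on the log2 scale in all 6 pairs of time-matched arrays, as it did in 31.7% of all genes, and 33 members passed 0.2 in 1 or more pairs. Over all pairs, 253 of 306 differences of the members (82.7%) lay within 0.2, beside 78.7% over all genes. The 0.4 mark was passed by 6 members, namely Ddx17, Ddx28, Ddx31, Ddx50, Dhx29 and Dhx57. Ddx28 and Ddx31 passed it at 8 h alone and Ddx50 at 0.5 h alone. The share of all genes past 0.4 was not counted, so this number is no result about the family. At 37°C alone the span from the lowest to the highest array had a median of 0.15 over the members and ran from 0.04 to 0.47. Ddx17 and Dhx57 were the members that passed a test, both lower at 32°C.

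**Figure D1:**
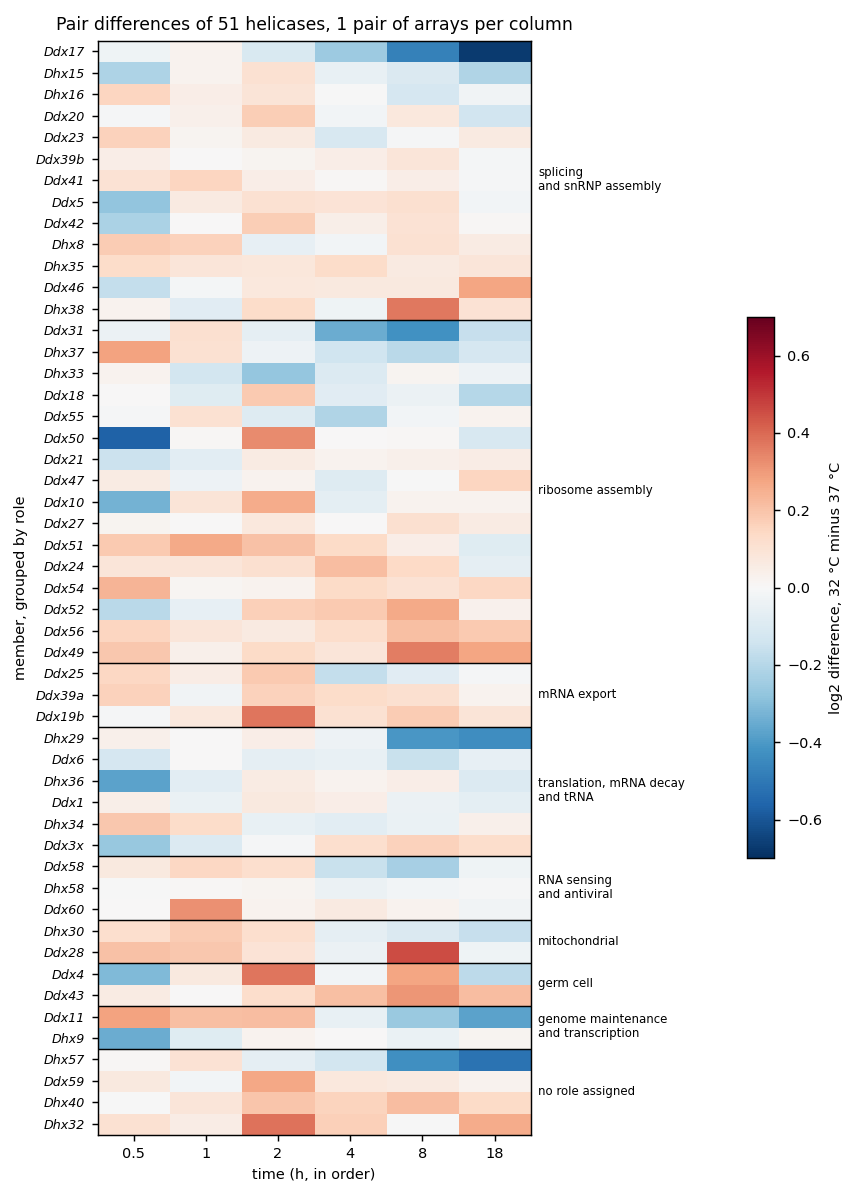
Log2 difference of 32°C minus 37°C for each of 51 members (rows, grouped by role) at each of 6 times (columns, in hours), 1 pair of arrays per column, with red for higher and blue for lower at 32°C. Ddx17 and Dhx57 reach -0.67 and -0.52 at 18 h, and Ddx50 stands at -0.56 at 0.5 h.

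To compare the temperatures from their shared start, the pair differences were fitted with a line set to 0 at 0 h. Its slope is called the divergence, in log2 per time point. In this fit (limma, adjusted over all genes) 0 of 51 members diverged upward, against 1.17% of all genes, and 1 of 51 downward, Ddx17, against 1.66%. At an unadjusted p under 0.05, 6 members were positive and 4 negative, where 8.52% and 9.9% of all genes were. The median divergence of the members was 0.0067, beside 0.0020 over all genes, and 30 of 51 were positive, where 53.8% of all genes were. With a separate term for 32°C the median turned to -0.0052, beside 0.0016 over all genes. Then 21 of 51 were positive, where 51.6% of all genes were. Over the pairs at 4, 8 and 18 h, 0 members were higher and 2 were lower, Ddx17 and Dhx57, where 0.802% of all genes were higher and 2.15% lower. At an unadjusted p under 0.05 the late difference was positive in 4 members and negative in 5, against 7.62% and 10.8% of all genes. The members' counts past these thresholds lay near the percentages of all genes in both directions.

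**Figure D2:**
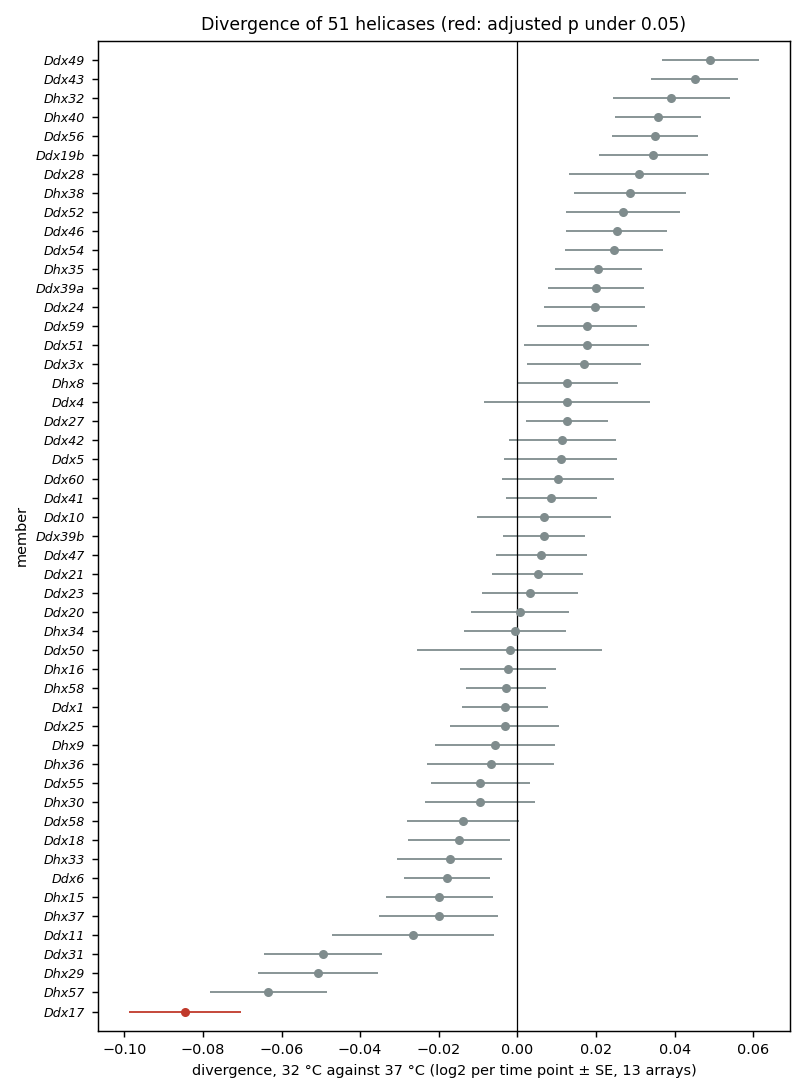
Divergence of each of 51 members in log2 per time point with its standard error from limma, ordered by value. Of the 13 arrays fitted, that at 0 h adds nothing to the estimate, which rests on the 6 pairs from 0.5 to 18 h. Ddx17 at -0.08 passed (red), Dhx57 at -0.06 did not, and Ddx49 and Ddx43 stand at the top with 0.05 each.

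Ddx17, known as p72, acts in splicing and in the processing of microRNA precursors and serves as a transcriptional coregulator. At 37°C its log2 intensity was 11.22, 11.15, 11.13, 11.23, 11.18, 11.14 and 11.20 at 0, 0.5, 1, 2, 4, 8 and 18 h. At 32°C it was 11.12, 11.16, 11.13, 10.92, 10.67 and 10.53 from 0.5 to 18 h. The arrays at 0.5 and 2 h at 32°C lay just below the lowest array at 37°C and that at 1 h within the range, and the 3 late arrays lay farther below, each lower than the one before. At 18 h Ddx17 stood at 0.629-fold of its level at 37°C, and its late mean log2 difference was -0.47 (SD 0.21, n = 3 pairs), or 0.724-fold. The divergence of -0.08 (SE 0.014) passed with an adjusted p of 0.0181 in limma, and the late difference with 0.0269. The divergence did not pass without the arrays at 4 h (adjusted p = 0.0586), 8 h (0.101) or 18 h (0.0965), nor by relative ranks (0.0598) or with a separate term for 32°C (0.135). The late difference did not pass without 8 h (0.165) or 18 h (0.106), by relative ranks (0.105), over all transcript clusters (0.0549) or in the late arrays alone (0.0899). Among all genes 0 passed late without 8 h or by relative ranks, and 2 higher and 2 lower in the late arrays alone. With the separate term, 3 of all genes diverged upward and 1 downward. The time trend of Ddx17 at 32°C, the slope on the order of the 7 time points, was -0.11 (SE 0.020, adjusted p = 0.0567 from limma) and that at 37°C was 0.00 (-0.0015, SE 0.010).

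Dhx57, a DEAH box protein whose cellular role is little described, followed a like course. Its log2 intensity at 37°C lay between 9.87 and 9.97. At 32°C it was 9.96, 9.97, 9.88, 9.75, 9.53 and 9.44 from 0.5 to 18 h. The arrays at 0.5 to 2 h overlapped with 37°C, and those at 4, 8 and 18 h lay below all 7. At 18 h it was 0.698-fold of its level at 37°C, with a late mean difference of -0.36 (SD 0.20, n = 3 pairs, adjusted p = 0.0481 from limma). Its divergence of -0.06 (SE 0.015) was just outside the threshold, with an adjusted p of 0.0505. The late difference did not pass without any 1 of the times 0.5, 1, 2, 8 and 18 h (adjusted p from 0.0662 to 0.259), and it passed without 4 h (0.0261). It did not pass under quantile normalization (0.055), by relative ranks (0.115), over all transcript clusters (0.0814) or in the late arrays alone (0.129). Among all genes 0 passed late without 8 h or by relative ranks, and 2 higher and 2 lower in the late arrays alone.

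**Figure D3:**
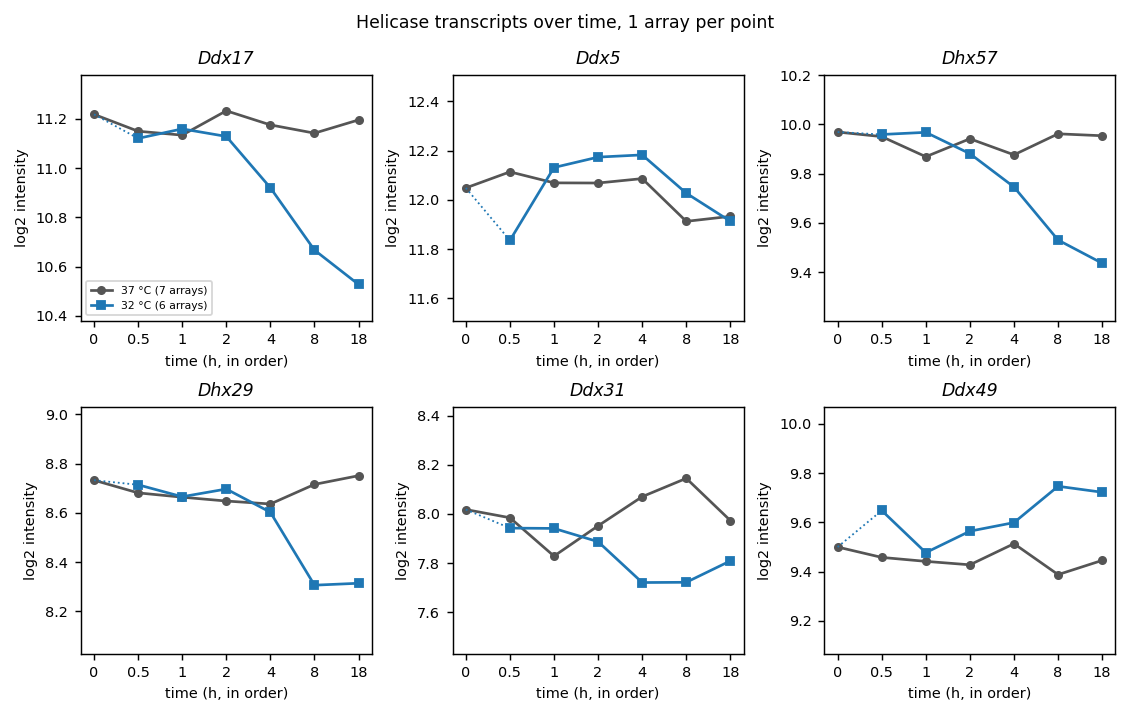
Log2 intensity over time (hours, in order) of Ddx17, Ddx5, Dhx57, Dhx29, Ddx31 and Ddx49 at 37°C (grey circles, 7 arrays) and 32°C (blue squares, 6 arrays), 1 array per point, with the dotted line joining the shared array at 0 h. Ddx17 and Dhx57 end at 10.53 and 9.44 at 32°C, and the points of Ddx5 at 18 h nearly meet.

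The promoter windows of these genes are shown because both fell late at 32°C, together with that of Ddx49, the member with the largest positive divergence. Each runs from 250 bases before to 50 bases after an annotated start, 5′ to 3′ along the gene, with matches to any of 7 searched motifs in capitals. The sequences are those of RefSeq on GRCm38.p6, on the minus strand, at chr15:79546692-79546991 for Ddx17, chr17:80290427-80290726 for Dhx57 and chr8:70302422-70302721 for Ddx49. For Ddx17 and Ddx49, which have 2 windows each, the one farthest upstream is given.
Ddx17: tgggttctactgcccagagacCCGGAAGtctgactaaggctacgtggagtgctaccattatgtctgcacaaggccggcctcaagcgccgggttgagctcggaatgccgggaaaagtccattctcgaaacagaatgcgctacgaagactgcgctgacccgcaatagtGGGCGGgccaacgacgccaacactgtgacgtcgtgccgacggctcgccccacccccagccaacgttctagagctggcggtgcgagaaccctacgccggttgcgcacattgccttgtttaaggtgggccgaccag
Dhx57: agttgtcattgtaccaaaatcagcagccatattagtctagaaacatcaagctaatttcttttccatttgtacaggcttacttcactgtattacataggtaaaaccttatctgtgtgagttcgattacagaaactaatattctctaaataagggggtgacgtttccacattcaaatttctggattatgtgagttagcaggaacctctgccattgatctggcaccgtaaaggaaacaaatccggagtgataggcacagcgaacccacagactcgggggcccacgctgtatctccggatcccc
Ddx49: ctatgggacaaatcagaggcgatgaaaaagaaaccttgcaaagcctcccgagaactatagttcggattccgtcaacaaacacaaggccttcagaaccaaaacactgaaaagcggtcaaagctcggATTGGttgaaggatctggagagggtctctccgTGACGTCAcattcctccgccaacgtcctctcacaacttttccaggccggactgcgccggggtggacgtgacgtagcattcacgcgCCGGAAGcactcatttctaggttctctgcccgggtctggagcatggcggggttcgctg

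The capitals in Ddx17 mark the ETS core CCGGAAG from base 22 and a GC box GGGCGG from base 167. Dhx57 held none of the 7 motifs in its window, of which 42.7% were G or C, beside 60.7% in Ddx17 and 54.3% in Ddx49. The Ddx49 window held a CCAAT box (as ATTGG, from base 126), the cAMP response element TGACGTCA from base 158 and the ETS core from base 243.

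All motifs were searched on both strands, and 45 of 51 members and 15614 tested genes had a window. The ETS core CCGGAAG was found in 19 of 45 members and in 13.6% of the genes, and the GC box GGGCGG, which overlaps the letters of the mild-cold response element, in 32 members and 52.9%. The CCAAT box was found in 23 members and 41.7% of the genes, the E-box CACGTG in 7 and 9.5%, the cAMP response element TGACGTCA in 4 and 2.72%, and the TATA box TATAAA in 6 and 13.6%. The mild-cold response element TCCCCGCC, described in the promoter of the cold-inducible gene Cirbp, was found in 2 members and 8.83% of the genes, and in none of the windows printed. Over all 32851 windows the ETS core was found in 8.86%, the GC box in 35.7% and the mild-cold response element in 5.38%. A match is only a run of letters in the window.

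Among the 13 members that act in splicing and in the assembly of spliceosomal particles, Ddx17 alone passed, and 10 had a positive divergence. Over all genes 53.8% were positive. With a separate term for 32°C, Ddx20, Ddx23, Ddx39b, Ddx41, Dhx35 and Dhx8 of the 10 turned negative. Ddx5, known as p68, is the closest relative of Ddx17 and shares its partners. At 37°C its log2 intensity ran from 11.91 to 12.11. At 32°C it was 11.84, 12.13, 12.17, 12.18, 12.03 and 11.91 from 0.5 to 18 h. Apart from the low array at 0.5 h and the high ones at 1, 2 and 4 h these lay within the range at 37°C, and the late mean difference was 0.06 (SD 0.07, n = 3 pairs, adjusted p = 0.739 from limma). The difference of Ddx17 minus that of Ddx5 was 0.25, -0.04, -0.21, -0.35, -0.59 and -0.65 from 0.5 to 18 h, negative in 5 of 6 pairs. Its mean of -0.26 (SD 0.34, n = 6 pairs) gave p = 0.156 in an exact 2-sided sign-flip permutation test, adjusted 0.234 over 3 pairs of relatives chosen after their values were seen, where 6 pairs allow no p below 0.0313. That test asks about the mean over the 6 times and cannot tell whether the difference changed with time. The late mean of this difference was -0.53 (SD 0.16, n = 3 pairs) and was not tested. The dimmer transcript cluster of Ddx5 followed the brighter one (Pearson r = 0.914 over 13 arrays) and had a late difference of 0.13 (adjusted p = 0.454 from limma).

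Of the other splicing helicases, Ddx46, the relative of yeast Prp5 that acts at the branch point, and Dhx38, that of Prp16 in the catalytic steps, had divergences of 0.03 each (SE 0.013 and 0.014, adjusted p = 0.326 and 0.313). Ddx46 at 32°C read 10.01 at 0.5 h and 10.31, 10.33 and 10.42 on the late arrays, all above its range of 10.14 to 10.28 at 37°C. Dhx35, a component of the spliceosome, was higher at 32°C in 6 of 6 pairs, by 0.06 to 0.13, with a mean of 0.09 (SD 0.03, n = 6 pairs, adjusted p = 0.339 from limma). The paralogs Ddx39a and Ddx39b, which act in mRNA export and in spliceosome assembly, differed in their response by 0.06 (SD 0.06, n = 6 pairs, p = 0.0938 in the exact sign-flip permutation test).

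In the 16 members that assemble ribosomes, 0 passed in the divergence and 10 were positive, from -0.05 in Ddx31 to 0.05 in Ddx49. Over all genes 53.8% were positive. With a separate term for 32°C, Ddx24, Ddx51 and Ddx54 turned negative, and Ddx50 and Dhx33 turned positive. Ddx49, the relative of yeast Dbp8, which acts in the small subunit, read 9.39 to 9.51 at 37°C and 9.65, 9.48, 9.56, 9.60, 9.75 and 9.72 at 32°C. All 6 pairs were higher at 32°C and the array at 1 h alone lay within the range at 37°C. Its divergence was 0.05 (SE 0.012, adjusted p = 0.0599 from limma), and its late difference 0.24 (SD 0.14, n = 3 pairs, adjusted p = 0.107), or 1.18-fold. Ddx56 and Ddx54, whose yeast relatives Dbp9 and Dbp10 act in the large subunit, were also higher in 6 of 6 pairs. Ddx56 was higher by 0.07 to 0.21 (mean 0.14, SD 0.06, adjusted p = 0.204 from limma) and Ddx54 by 0.01 to 0.24 (mean 0.11, SD 0.08, n = 6 pairs). In all, 4 members were higher in 6 of 6 pairs, these and Dhx35, and 0 lower, where 4.79% of all genes were higher throughout and 2.92% lower.

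Ddx31, a nucleolar protein that acts on the large subunit, went the other way. Its log2 intensity was 7.83 to 8.14 at 37°C and 7.94, 7.94, 7.89, 7.72, 7.72 and 7.81 at 32°C. The 3 late arrays lay below all arrays at 37°C, and the late difference of -0.31 (SD 0.13, n = 3 pairs) had an adjusted p of 0.0509 in limma. The arrays at 37°C read 8.07 and 8.14 at 4 and 8 h, their highest values. Dhx37, which acts in the assembly of the small subunit, read 9.09 to 9.17 at 37°C and fell from 9.41 at 0.5 h to 8.96 at 8 h at 32°C, with a late difference of -0.15 (SD 0.04, n = 3 pairs, adjusted p = 0.301 from limma). Ddx52 read 9.94, 9.93 and 9.75 at 4, 8 and 18 h at 32°C against 9.66 to 9.78 at 37°C (late difference 0.16, adjusted p = 0.33 from limma). Ddx18 had a divergence of -0.01 (SE 0.013) in its brighter transcript cluster and 0.01 (SE 0.011) in the dimmer one, and both correlated weakly (r = 0.434 over 13 arrays). Those of Ddx54 did so too (r = 0.439), with a divergence of 0.02 and 0.03.

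Among the 3 export helicases 0 passed. Ddx19b, which releases exported mRNA at the nuclear pore, had a divergence of 0.03 (SE 0.014, adjusted p = 0.213 from limma), and its largest difference of 0.38 fell at 2 h, where the array at 37°C was its lowest at 7.97. Ddx39a had 0.02 and Ddx25, a germ cell export helicase, 0.00 (-0.0033, SE 0.014).

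In translation, decay and tRNA processing, 0 of 6 members passed and 5 of 6 had a negative divergence. Over all genes 53.8% were positive, and Dhx36 turned positive with a separate term for 32°C. Dhx29, which helps ribosomal subunits to scan structured leaders of mRNA, read 8.64 to 8.75 at 37°C. At 32°C it was 8.71, 8.67, 8.70, 8.60, 8.31 and 8.31. It kept to the range at 37°C until 2 h and lay clearly below it at 8 and 18 h. The late difference was -0.29 (SD 0.23, n = 3 pairs, adjusted p = 0.0953 from limma), and at 18 h it stood at 0.739-fold. Ddx3x, a translation initiation helicase encoded on the X chromosome, read 11.17 at 0.5 h, its lowest value, and 11.63, 11.63 and 11.51 on the late arrays at 32°C, where 37°C gave 11.38 to 11.55. Its late difference was 0.13 (SD 0.02, n = 3 pairs, adjusted p = 0.321 from limma), with 0.28 in its dimmer transcript cluster (adjusted p = 0.178). Ddx6, a repressor of translation in P-bodies, had a divergence of -0.02 (SE 0.011, adjusted p = 0.422). Dhx36, which unwinds G-quadruplexes, had -0.01 and Dhx34, a factor of nonsense-mediated decay, 0.00 (-0.0006).

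The 3 helicases of RNA sensing gave no call. Ddx58, the gene of the viral RNA sensor RIG-I, read 10.17 to 10.52 at 37°C and 10.43, 10.43, 10.29, 10.13, 10.29 and 10.43 at 32°C. Both courses dipped, at 2 h at 37°C and at 4 h at 32°C, and the divergence was -0.01 (SE 0.014, adjusted p = 0.666 from limma). Dhx58, which encodes the regulator LGP2, had 0.00 (-0.0028) and Ddx60, an antiviral factor, 0.01. Both mitochondrial members act on the mitochondrial ribosome. Ddx28 had a divergence of 0.03 (adjusted p = 0.391), of which the largest part was the array at 8 h with 7.46, beside 7.12 to 7.21 on the other arrays at 32°C, and Dhx30 had -0.01 (adjusted p = 0.78 from limma).

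Ddx11, a DNA helicase needed for the cohesion of sister chromatids, turned from higher to lower. At 37°C it read 7.65, 7.51, 7.49, 7.47, 7.51, 7.48 and 7.68 from 0 to 18 h. At 32°C it was 7.79, 7.70 and 7.68 on the early arrays and 7.46, 7.22 and 7.30 on the late ones. The early arrays at 32°C lay above all at 37°C and the late ones below all. The late minus the early difference was -0.47 (SE 0.10, unadjusted p = 0.00112), and the adjusted p was 0.193 in limma. Dhx9, known as RNA helicase A, a cofactor of transcription, had a divergence of -0.01 (adjusted p = 0.885). Both measured germ cell members were at low signal. Ddx43 read 5.37 to 5.55 at 37°C and 5.71, 5.81 and 5.72 on the late arrays at 32°C, all above that range, with a divergence of 0.05 (SE 0.011, adjusted p = 0.055 from limma), and Ddx4, the germ line marker Vasa, had 0.01. Among members with no role assigned here, Dhx40 and Dhx32 had divergences of 0.04 each (adjusted p = 0.109 and 0.186).

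Arrays that did not overlap were counted over all members. In 6 of 51, Ddx11, Ddx17, Ddx31, Dhx29, Dhx37 and Dhx57, all 3 late arrays at 32°C lay below all 7 at 37°C, and in 6, Ddx43, Ddx46, Ddx49, Ddx54, Ddx56 and Dhx40, above, where 7.79% and 6.27% of all genes did. By Kendall's tau over the 7 times from 0 h on, 4 members rose and 7 fell at 32°C at a 1-sided exact p under 0.05, against 8.82% and 8.44% of all genes. Those that fell were Ddx11, Ddx17, Ddx31, Dhx29, Dhx30, Dhx37 and Dhx57, with Dhx57 at the lowest tau of -0.90 (exact 2-sided p = 0.00278, before adjustment). At 37°C 1 rose, Dhx9, and 1 fell, Ddx52, against 4.99% and 3.3% of all genes. Ddx52 at 37°C and Ddx27, which rose at 32°C, hold equal values at some times, so their p is approximate. After adjustment over all genes 0 members passed at either temperature, with a lowest adjusted p of 0.26 at 32°C.

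In limma, 0 members had a time trend at 32°C, where 0.0451% of all genes rose and 0.0502% fell, and with an unadjusted p under 0.05 the slope was positive in 1 and negative in 7, against 7.14% and 9.35%. None of the 51 had a trend at 37°C, where 0.0% of all genes passed, and 0 reached an unadjusted p under 0.05, against 3.62% rising and 2.18% falling. Over all 6 pairs 0 members passed, beside 0.015% of all genes higher and 0.0552% lower, with 9 higher and 2 lower at an unadjusted p under 0.05, against 7.13% and 6.39%. The difference between late and early pairs passed in 0 members and in 0.0% of all genes, and at an unadjusted p under 0.05 it was positive in 1 member and negative in 9, against 3.77% and 7.69% of all genes.

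The array at 0.5 h and 32°C stood apart in several members. At this time 9 of 51 were lower than at 37°C by over 0.2 on the log2 scale, a limit chosen after the values were seen, where 9.1% of all genes were. They were Ddx3x, Ddx4, Ddx5, Ddx10, Ddx42, Ddx50, Dhx9, Dhx15 and Dhx36. Ddx50, a nucleolar relative of Ddx21, was at 8.62 on this array, against 9.14 to 9.19 at 37°C, and at 9.52 at 2 h. Both values lay far outside the narrow range at 37°C, on opposite sides. Dhx9 read 10.10 against 10.44 to 10.57 at 37°C, and Dhx36 9.62 against 9.98 to 10.05. At 2 h, 8 members were higher by over 0.2, against 10.9% of all genes, among them Ddx4, Ddx10 and Ddx50 of the 9. Each of these times holds 1 pair of arrays, so no test was made, and the time and the array cannot be told apart. Ddx21 and Ddx50 differed in their response by 0.05 on average (SD 0.23, n = 6 pairs, p = 0.656 in the exact sign-flip permutation test).

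**Figure D4:**
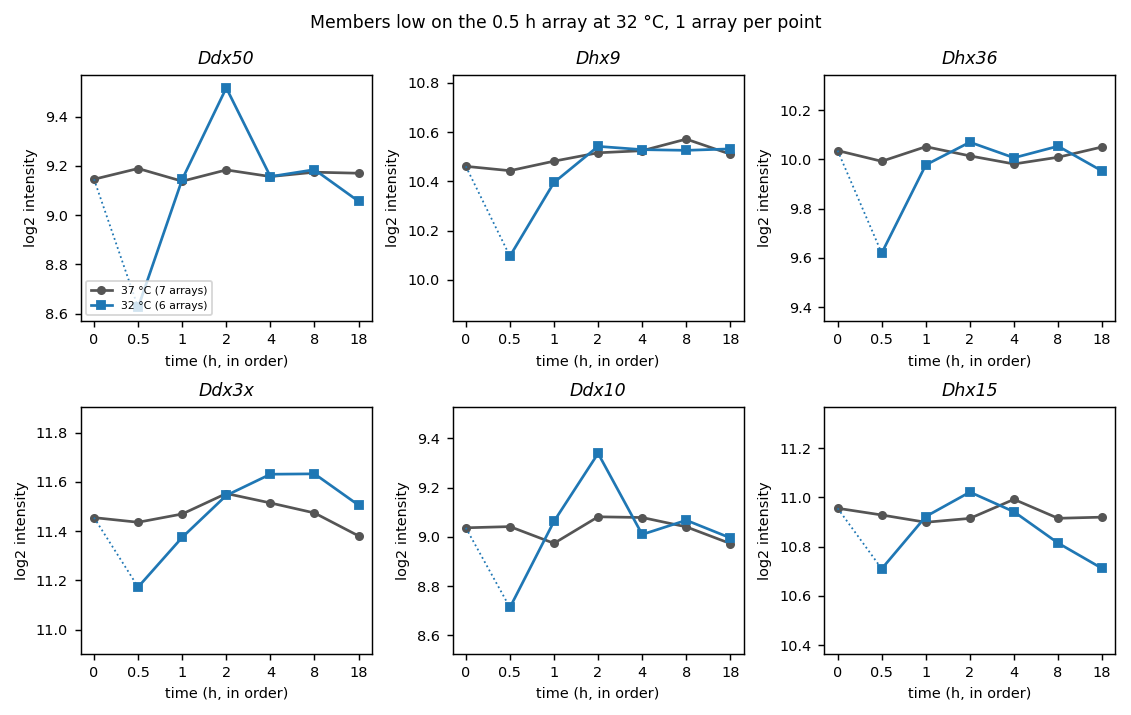
Log2 intensity over time (hours, in order) of Ddx50, Dhx9, Dhx36, Ddx3x, Ddx10 and Dhx15 at 37°C (grey circles, 7 arrays) and 32°C (blue squares, 6 arrays), 1 array per point. On the array at 0.5 h and 32°C Ddx50 reads 8.62, Dhx9 10.10 and Dhx36 9.62, each below all arrays at 37°C.

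Genes that work with these helicases were counted in the same fits. There 1.17% of all genes passed upward and 1.66% downward in the divergence, and 0.802% and 2.15% late. Of 21 measured RNA helicases of other families 0 passed in the divergence, with 6 positive, and 0 late, with 8 positive. Over all genes 53.8% were positive in the divergence and 53.5% late. At an unadjusted p under 0.05 in limma, 3 of the 21 were positive and 7 negative in the divergence, against 8.52% and 9.9% of all genes. Late, 2 of the 21 were positive and 8 negative, against 7.62% and 10.8%. Eif4a2, an isoform of the translation initiation helicase eIF4A, had the lowest late adjusted p among the 21, at 0.0613 with a difference of -0.59 (SE 0.14, limma). Of 38 measured partners, which bind or activate the helicases, 0 passed in the divergence and 1 late, Gemin4, a component of the complex that assembles spliceosomal particles together with Ddx20, at -0.34 (adjusted p = 0.0334 from limma). Ddx20 itself read 8.37 to 8.65 at 32°C and 8.39 to 8.55 at 37°C. Of 15 interferon-induced antiviral genes measured beside Ddx58, Dhx58 and Ddx60, 0 passed in the divergence and 1 late, Stat2, a transcription factor of interferon signalling, at -0.41 (adjusted p = 0.0438 from limma). At an unadjusted p under 0.05, 2 partners were positive and 7 negative in the divergence, and 2 and 6 late. Among the antiviral genes 2 were positive and 1 negative in the divergence, and 2 and 2 late.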

How the data were processed

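Total RNA of mouse fibroblasts was labelled with the Ambion WT Expression Kit and hybridized to Affymetrix Mouse Gene 1.0 ST arrays. The values the authors deposited are linear intensity values, 1 for each transcript cluster on each array. The summary of probes and the normalization are not given in the sources used here. Array medians lay between 145.04 and 149.8, and log2 of the deposited values was taken with no further scaling. Of 28853 transcript clusters, 21789 carried 1 gene symbol and gave 19938 genes, each by its brightest cluster. Gene symbols came from the platform annotation, updated by Entrez identifier, and probe positions and detection calls were not used.

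Fits used limma 3.58.1 (lmFit, eBayes) in R 4.3.3 with Benjamini-Hochberg adjustment over all genes, 2-sided, at 0.05. The divergence blocks on time and has no term for the level at 32°C, so a constant difference after 0 h also enters it. Its start at 0 is set by the model, and leaving out the array at 0 h changes no value. Without replicate arrays, errors are the spread around a line or between pairs. Kendall's tau was tested with its exact null for series without equal values, so the p is approximate for members that hold equal values. Code was tested on simulated data. Plots were made in matplotlib 3.10.9. The alternatives were quantile normalization, relative ranks, genes above the median signal, all transcript clusters, the mean of a gene's clusters, eBayes with trend and robust, time as log2(h + 0.5), each time point left out, a separate term for 32°C, no block, and the late arrays alone.

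Members and lists were chosen with earlier results of these data known. Named are members past the threshold in any comparison, the 5 largest and 5 smallest coefficients in the divergence, each trend and the late difference, members with several clusters, up to 4 members per role by p, and those with 1 sign in 6 of 6 pairs.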

Additional observations from a re-analysis of the deposited data

Results flagged for a closer look

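Of 64 series of arrays tested, those of 32 members at each temperature, 5 had an array far from the others. A chance rate of about 1 in 20 holds for series not picked by their values. Most of these members were named by their values here, so that rate does not measure chance for them. All 5 were at 32°C. Dhx36 was lowest at 0.5 h with 9.62 and Dhx9 with 10.1 on the same array. Ddx28 was highest at 8 h with 7.46, as was Dhx38 with 8.67, and Ddx60 was lowest at 8 h with 4.46 on the log2 scale. Ddx60 is dim, and its intensity was the same 23.8593 at 0.5, 1 and 18 h at 32°C and on several arrays at 37°C. Repeated values also occurred in brighter members. Ddx27 had 462.061 at 1 and 4 h at both temperatures, and Ddx6 had 4684.33 at 1 h at both, which set those pair differences to 0. The cause of the repeats was not tested. At 37°C Ddx60 read lower still at 1 h, with 4.26 on the log2 scale.

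In 6 of the 32 members named by the rule the difference between 32°C and 37°C had 1 sign in all 3 early pairs and the opposite sign in all 3 late pairs. The late minus the early difference was -0.47 in Ddx11, -0.32 in Dhx29, -0.25 in Ddx58, -0.25 in Dhx30, -0.21 in Ddx25 and 0.26 in Ddx3x. It passed limma's threshold in none of them, with adjusted p from 0.193 to 0.414 and unadjusted p from 0.00112 to 0.0392. Dhx16, which that rule does not name, showed the same pattern with -0.14 (unadjusted p = 0.124). The early and late pairs hold 3 arrays of each temperature. The share of all genes with this pattern was not counted, and most of the 32 members were named by their values. The 6 of 32 is therefore no result about the family.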

How the results depend on the processing

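Ddx17 passed in the divergence under 11 of 16 alternatives and late under 8 of 13, and kept its sign in all of them. Many alternatives could not change its estimate. Leaving out 0 h repeated the main divergence fit. The signal filter, all transcript clusters, the mean of clusters, the eBayes options and no block kept the divergence at -0.0846. Leaving out 0.5, 1 or 2 h kept the late difference at -0.466. A kept sign in these settings is no separate support. The divergence was called in 3 members under quantile normalization, above the median signal and with eBayes trend and robust (Ddx17, Dhx57 and Ddx49), in 2 with the mean of clusters and with log2 time, in 6 without the block, and in 0 by relative ranks or with a separate term for 32°C. Over all genes it was called up and down in 299 and 325 under quantile normalization and in 362 and 532 with eBayes trend and robust. Above the median signal 343 and 494 of 10866 genes were called. With the mean of clusters the calls were 242 and 338, with log2 time 234 and 351, and without the block 320 and 454. By relative ranks they were 107 and 60, and with the separate term 3 and 1. The late difference was called in 3 members above the median signal and with eBayes trend and robust (Ddx17, Dhx57 and Ddx31), in 1 under quantile normalization and in 0 by relative ranks, over all transcript clusters or in the late arrays alone. Over all genes the late calls up and down were 240 and 641 above the median signal and 269 and 641 with eBayes trend and robust. Under quantile normalization they were 194 and 339, over all transcript clusters 50 and 129, and in the late arrays alone 2 and 2. By relative ranks 0 genes were called. Where so few genes were called, a count of 0 is no result about the members. The trend at 32°C was called in 1 member under quantile normalization and in 2 above the median signal, with eBayes trend and robust and with log2 time. Over all genes these settings gave 26 and 26, 60 and 165, 61 and 142, and 30 and 65 calls up and down, in that order. By Kendall's tau at 37°C, 1 member passed under quantile normalization or relative ranks, against 2.

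With each time point left out, the calls ranged from 0 to 2 in the divergence, from 0 to 3 late, from 6 to 9 by Kendall's tau at 32°C, from 0 to 3 at 37°C, and from 4 to 10 for 1 sign in all remaining pairs. With all times, 4 members rose and 7 fell by Kendall's tau at 32°C. The count for 1 sign could not fall below the 4 of all 6 pairs, since fewer pairs make that rule easier. The calls stayed at 0 for both trends, the 6 pairs and the late minus the early difference. With a separate term for 32°C the divergence turned in 17 of 51 members, 13 to negative and 4 to positive, among them these 7 of those named by the rule for this comparison, Ddx28 (-0.014), Ddx39a (-0.0082), Ddx54 (-0.0031), Ddx60 (-0.027), Dhx35 (-0.0069), Dhx36 (0.049) and Dhx9 (0.056). With a time point left out it ran from -0.0103 to 0.0049 in Ddx25, from -0.0034 to 0.0411 in Ddx4 and from -0.0149 to 0.0018 in Dhx30, and the trend of Ddx4 at 37°C from -0.0665 to 0.0073. None of these had passed, and the cause was not tested. Arrays were paired by time alone, since the labels give no replicate numbers. With 1 array per temperature and time, and no detection calls, small changes and those of dim members such as Ddx43 are least certain.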
